A study of Mus musculus with 4 samples.

Results

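The interleukin-12 family is a group of cytokines built from paired subunits, and the genes of 4 subunits, Il12a, Il12b, Il23a and Ebi3, were examined in peritoneal macrophages with and without the H3K9 methyltransferase Setdb1. They were taken by name from the annotation of the array, which gave 5 probe sets with a single symbol for these 4 of 18193 genes, 2 for Il12b and 1 for each of the others. Macrophages were elicited with thioglycollate in LysM Cre/+:Setdb1 fl/fl mice (KO) and in +/+:Setdb1 fl/fl mice without Cre (WT), so that the floxed alleles were shared by both genotypes and the strain was given as C57BL6/J. Cells that had attached in culture received lipid A, the active part of lipopolysaccharide and a ligand of TLR4, or vehicle for 4 h. The series design and the paper state 10 ng/ml of lipid A, whereas the treatment protocol of the samples states 10 µg/ml. LysM Cre acts in myeloid cells in general, and neither the age of the mice nor the number of mice behind an array is given in the sources used here.

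Each of the 4 conditions was measured on 1 Affymetrix array. There was therefore no replicate, no test and no spread between mice, and every difference below compares single arrays. The values were linear probe set signals, scaled by array, and the median signal of an array, leaving out control probe sets, lay between 65.1 and 84.2. A signal below the median of its array was read as background, and a fold against such a signal is given as a lower bound computed from that median. Detection in a comparison required that the higher signal reach the median of its array. Probe sets of the same gene differed with an SD of 0.39 to 0.50 in their log2 differences, depending on the comparison. This technical spread was taken where all signals compared reached the median of their array, and it holds nothing of the differences between mice.

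The targeted gene and the cell type were examined first. The probe set of Setdb1 with the highest signal was 1.70-fold lower in KO than in WT under vehicle and 1.35-fold lower under lipid A, and the other two probe sets were below the median of every array. Where these probe sets lie relative to the deleted part is not known here, so they do not check the genotype. The paper itself reports a check of knockout efficiency by Setdb1 mRNA and protein in peritoneal macrophages of both genotypes. All 10 macrophage markers examined were at or above the array median on 3 of the arrays and 9 of 10 were so in WT vehicle, where Marco was below it, and their summed signal lay between 163081 and 209730. Marco was at least 15.6-fold higher in KO than in WT under vehicle and 10.7-fold higher under lipid A, and Adgre1, a macrophage surface receptor gene, had vehicle signals of 10187 in WT and 3726 in KO. The ratio of 3′ to 5′ signal, a sign of RNA integrity, lay between 1.79 and 2.19 for actin and between 0.945 and 1.35 for Gapdh. Both ratios were highest in KO vehicle. On that array all 5 probe sets of the family had their lowest signal as measured, but all except that of Ebi3 were at background there. The part of RNA integrity in these signals was not tested.

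Members of the family share a simple plan. An alpha subunit, which resembles a helical cytokine, pairs with a beta subunit, which resembles a soluble cytokine receptor. p40, encoded by Il12b, joins p35, encoded by Il12a, to form interleukin-12, and joins p19, encoded by Il23a, to form interleukin-23. The other beta subunit, encoded by Ebi3, joins the product of Il27 to form interleukin-27 and can join p35 to form interleukin-35. Macrophages and dendritic cells make interleukin-12 and interleukin-23 after TLR stimulation, and these cytokines act on T cells and NK cells.

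The bases upstream of the start site are shown for 3 of the genes because the members differed in their response to lipid A, and because NF-κB, AP-1, C/EBP, PU.1 and interferon regulatory factors are known to act on promoters of this family. The sequences are from RefSeq, build GRCm38.p6, plus strand, read 5′ to 3′ and ending at the base before the annotated start. Il12b is at chr11:44400063-44414677, Il12a at chr3:68690644-68698550, Il23a at chr10:128296140-128298084 and Ebi3 at chr17:55952623-55957022. Capitals mark matches on either strand to one of the motifs named after the sequences, and the windows are chr11:44399813-44400062 for Il12b, chr3:68691174-68691423 for the downstream start of Il12a and chr17:55952373-55952622 for Ebi3.
Il12b: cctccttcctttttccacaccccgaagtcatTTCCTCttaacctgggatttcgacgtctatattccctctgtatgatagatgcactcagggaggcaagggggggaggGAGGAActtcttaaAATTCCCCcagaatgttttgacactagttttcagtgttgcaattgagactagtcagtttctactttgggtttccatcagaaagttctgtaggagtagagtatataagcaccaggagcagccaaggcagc
Il12a: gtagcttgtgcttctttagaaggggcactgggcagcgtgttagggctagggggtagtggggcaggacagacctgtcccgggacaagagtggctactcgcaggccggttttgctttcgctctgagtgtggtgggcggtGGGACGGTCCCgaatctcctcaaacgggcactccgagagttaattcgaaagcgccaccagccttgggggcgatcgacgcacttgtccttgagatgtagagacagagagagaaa
Ebi3: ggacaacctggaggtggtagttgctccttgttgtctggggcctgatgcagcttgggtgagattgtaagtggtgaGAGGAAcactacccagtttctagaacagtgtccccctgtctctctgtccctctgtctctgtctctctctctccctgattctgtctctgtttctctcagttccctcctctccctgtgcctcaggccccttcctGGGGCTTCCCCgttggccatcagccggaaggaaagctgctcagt

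The motifs searched on both strands were the NF-κB consensus, a looser NF-κB pattern GGGNNNNNCC that overlaps it, AP-1 as TGANTCA, C/EBP as TTGCNNAA, a PU.1 core GAGGAA, the interferon-stimulated response element as GAAANNGAAA and TATAAA. The Ebi3 window held the NF-κB consensus from -44 to -35 relative to the start, a motif present in 3.9% of 32851 windows of the same length. The looser pattern, present in 45.8% of windows, was found there and in the Il12a window from -113 to -103. PU.1 cores, present in 23.3% of windows, were found at -219 to -214 and -143 to -138 of Il12b and at -176 to -171 of Ebi3. AP-1 (6.75% of windows), C/EBP (9.56%), the interferon element (2.98%) and TATAAA (12.4%) had no match in these windows, and the window of the upstream start of Il12a had a match to none of the motifs. The letters GGGGAATT, a search added after the Il12b window had been read, were present on the minus strand at -129 to -122 of Il12b and in 0.734% of all windows. A match to such letters is a description of the sequence and no measurement of binding.

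Il12b, the shared p40 subunit of interleukin-12 and interleukin-23, went from a signal of 59.9 with vehicle to 846 with lipid A in WT, and from 39.1 to 6599 in KO. Both vehicle signals were below the medians of their arrays, and the KO lipid A signal was the highest of the 4. Lipid A thus gave an Il12b signal at least 13.0-fold higher in WT and at least 78.4-fold higher in KO. Under lipid A it was 7.80-fold higher in KO than in WT, a log2 difference of 2.96 against a technical SD of 0.41. Of 9685 genes at or above the median on both lipid A arrays, 16 had a larger ratio of KO to WT.

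On the further probe set Il12b went from 85.7 with vehicle to 309 with lipid A in WT, and from 27.2 to 3118 in KO. On both probe sets KO lipid A was highest, WT lipid A followed and the vehicle arrays were lowest. For KO against WT under lipid A the further probe set gave 10.1-fold, and the gap of 0.37 on the log2 scale between the probe sets was smaller than the technical SD of 0.41. They did not give the same size of induction in WT, however. The further probe set was 3.60-fold higher with lipid A in WT, against the bound of 13.0-fold. The gap was 1.85 on the log2 scale with low signals raised to the median, and the technical SD was 0.39. That SD leaves out background signals, such as the WT vehicle signal of the main probe set. Its signal in WT vehicle was the single Il12b signal under vehicle that reached the median of its array.

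Il12a, the p35 subunit of interleukin-12, had signals of 40.8 with vehicle and 613 with lipid A in WT macrophages, and of 4.42 and 1368 in KO macrophages. It was background on both vehicle arrays and clearly above the median on both lipid A arrays, a detection pattern shared with Il12b and found in 256 of 18193 genes. Lipid A gave a signal at least 9.41-fold higher in WT and at least 16.3-fold higher in KO. Under lipid A it was 2.23-fold higher in KO than in WT, or 1.16 on the log2 scale, which is below the 3-fold threshold that the methods set between genotypes. Of the 9685 genes, 247 had a larger ratio.

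Il23a, the p19 subunit of interleukin-23, had signals of 7.36 with vehicle and 62.9 with lipid A in WT macrophages, and of 1.52 and 422 in KO macrophages. KO lipid A was thus the single array on which Il23a reached the median, a pattern that 589 of 18193 genes, or 3.24%, had. In KO it was at least 5.01-fold higher with lipid A, while no fold is given for WT, in which both signals were background. Under lipid A it was at least 5.64-fold higher in KO than in WT. With signals below the median raised to it, 43 of 12335 genes detected under lipid A had a larger difference.

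Ebi3, the beta subunit of interleukin-27, was the member whose signals did not depend on stimulation for detection. WT macrophages gave 569 with vehicle and 989.7 with lipid A, KO macrophages gave 397 and 575, and all of these were above the medians. The signal with lipid A was 1.74-fold that with vehicle in WT and 1.45-fold in KO, and both values are under 2-fold. In KO it was 1.43-fold lower than in WT under vehicle and 1.72-fold lower under lipid A. The log2 differences of -0.52 and -0.78 compare with technical SDs of 0.42 and 0.41, and 687 of the 9685 genes were lower still in KO under lipid A. From the highest to the lowest signal the order was WT lipid A, KO lipid A, WT vehicle and KO vehicle, and the middle pair, at 575 and 569, was close.

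**Figure D1:**
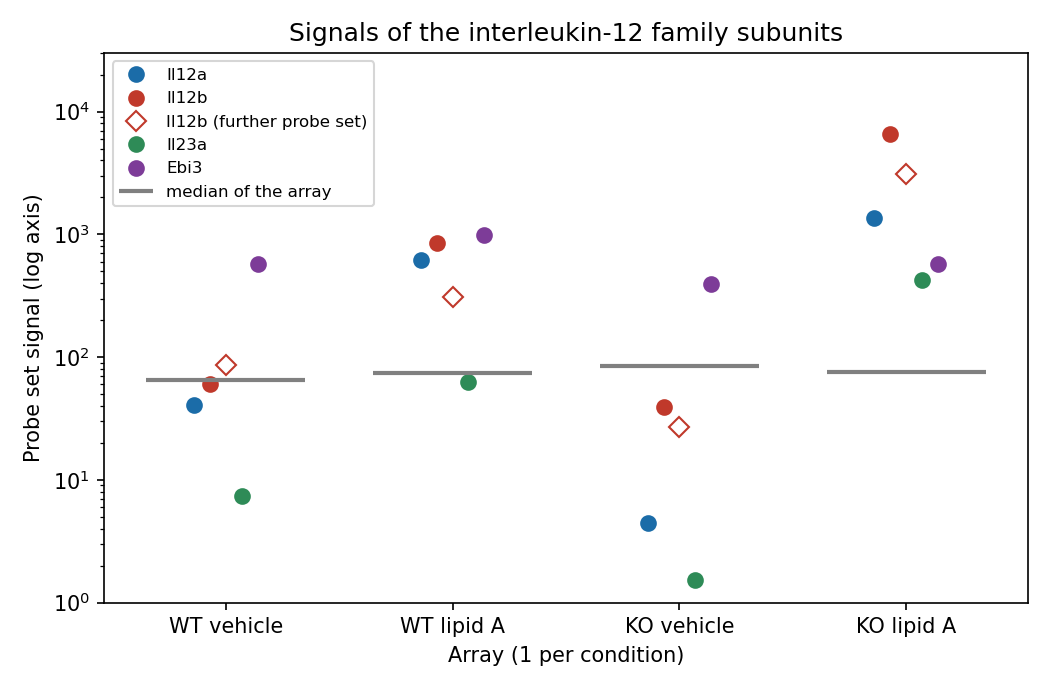
Probe set signals of Il12a, Il12b, Il23a and Ebi3 on a log scale, 1 point standing for a probe set on 1 of the 4 arrays, an open diamond for the further probe set of Il12b, and a grey line at the median signal of each array. In KO lipid A every point lies above the line, Il12b is highest at 6599, and Il23a lies above the line on no other array.

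The comparison of lipid A with vehicle asks which subunits were induced through TLR4 in each genotype. By the threshold of over 2-fold, 2 of the 3 members detected in WT were higher with lipid A, namely Il12a and Il12b. Over all 12129 genes detected in that comparison 11.8% were higher and 8.94% lower by this threshold. In KO, 3 of 4 detected members were higher, Il12a, Il12b and Il23a, against 11.2% of 12293 genes higher and 16.0% lower. Il12a, Il12b and, in KO, Il23a were detected through their lipid A signal alone, so that they could only be called higher. With both signals required to reach their median, 0 members passed in WT and 0 in KO. Most genes behind the shares reached the median on both arrays, 9785 of 12129 in WT and 9745 of 12293 in KO. Over detected members the median log2 difference was 3.82 in WT and 7.76 in KO, or 3.23 and 3.17 once background signals were raised to the array median, and that of all detected genes was -0.082 and -0.20. The median over members depends on how background signals are treated, since the vehicle signals of Il12a, Il12b and Il23a were at background, and the KO median also includes Il23a, which was not detected in WT. With raised signals, 40 genes had a larger response than Il12b in WT and 15 in KO, and 59 and 67 had a larger response than Il12a.

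The difference between the 2 responses was positive for Il12a, Il12b and Il23a. By the signals as measured, all 3 had a response over 2-fold larger in KO, against 12.2% of 13567 genes with a larger and 17.0% with a smaller response by this threshold. These sizes rest on vehicle signals at background, and with such signals raised to the median the log2 difference of responses was 2.59 for Il12b, 2.13 for Il23a and 0.79 for Il12a. Il12a then no longer passed the threshold. For Ebi3 the value was -0.26, within the technical SD of 0.50, and it turned to 0.087 when the arrays were scaled to a common median.

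**Figure D2:**
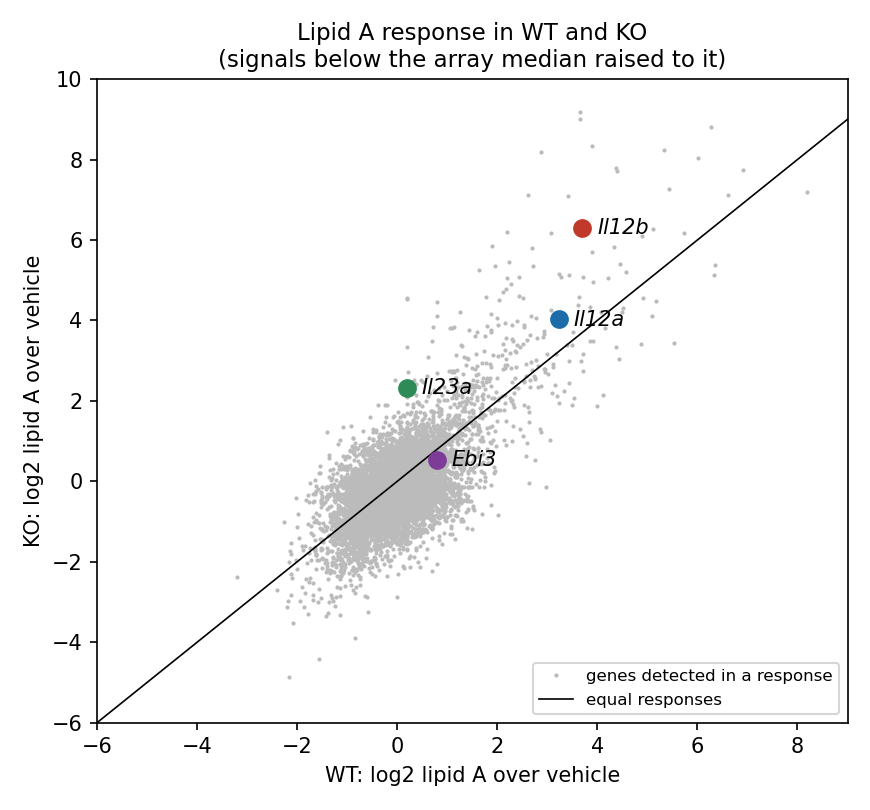
Log2 response to lipid A in WT (horizontal) and in KO (vertical), background signals being raised to the array median, for every gene detected in a response (grey) and for the 4 subunit genes (coloured), with a line of equal responses. Il12b and Il23a lie 2.59 and 2.13 above the line, Il12a lies 0.79 above it, and Ebi3 lies 0.26 below it.

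The comparison of KO with WT asks how loss of Setdb1 in myeloid cells bears on the subunit genes. Under lipid A all 4 members were detected, and 2 of them, Il12b and Il23a, were over 3-fold higher in KO with 0 lower. By that threshold 6.35% of 12335 detected genes were higher and 5.73% lower. The median of the 4 members was 1.95 on the log2 scale, or 1.83 once background signals were raised to the median, and that of all detected genes was -0.013 and -0.0074. The genes of both subunits of interleukin-23 were thus past the threshold, Il23a by a bound of 5.64-fold against a background signal in WT. Il23a was detected through KO lipid A alone, and with both signals required to reach their median 1 member, Il12b, passed. For interleukin-12 the gene of p40 was past the threshold and that of p35 was not. The beta subunits went in opposite directions, with Il12b 7.80-fold higher and Ebi3 1.72-fold lower.

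Without stimulation the genotype difference could hardly be read for this family. Of the 4 members, Ebi3 alone was detected under vehicle by the probe set that represents the gene, and it was not past the threshold. Among 12002 genes detected under vehicle, 6.28% were over 3-fold higher and 3.65% lower in KO. All 5 probe sets had a lower signal in KO vehicle than in WT vehicle. For Il12a, Il23a and the main probe set of Il12b both signals were background, so no order is read from them. The further probe set of Il12b was 3.15-fold lower as measured, with 85.7 against 27.2, but 85.7 is close to the KO median of 84.2 that bounds the lower signal.

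**Figure D3:**
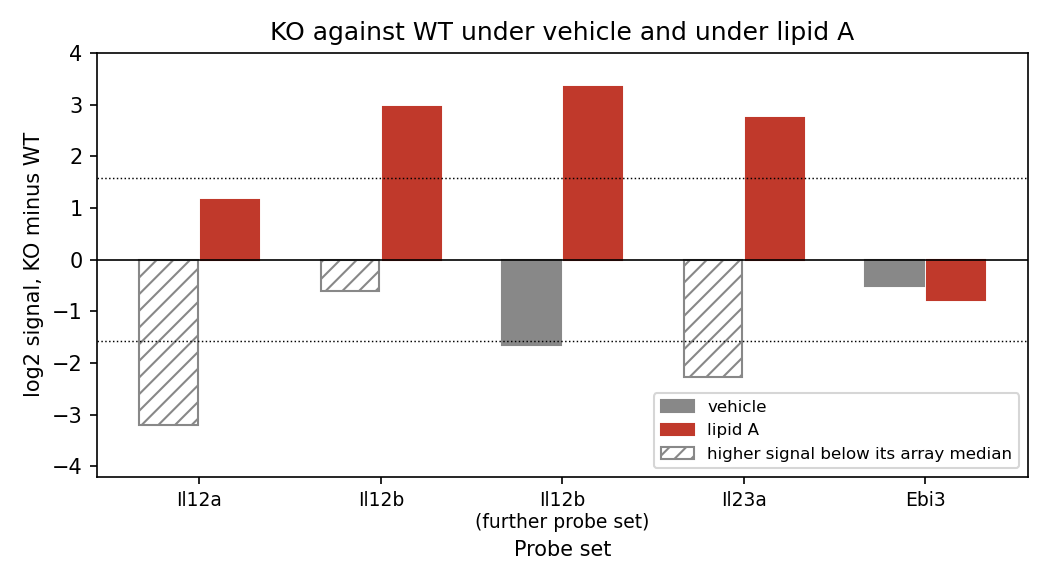
Log2 difference of signal, KO minus WT, under vehicle (grey) and lipid A (red) for each of the 5 probe sets, with dotted lines at 3-fold in either direction and hatched bars where the higher of the 2 signals was below its array median. Under lipid A both probe sets of Il12b and the probe set of Il23a pass the upper line, Il12a reaches 1.16, and Ebi3 is negative in both comparisons.

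The partner and receptors of the family were then examined. Of 6 listed genes, 4 had a probe set with a single symbol and Il27 and Il23r had none. Il6st, which encodes the gp130 chain of the interleukin-27 receptor, was between 722 and 832 on all arrays by the probe set used, while its further probe sets varied more. Il27ra, its specific chain, had signals of 202 and 209.9 in WT and of 70.3 and 219 in KO, with vehicle and lipid A in turn. It was at background in KO vehicle alone, at least 2.40-fold lower there than in WT vehicle, and the lipid A signals of the genotypes differed by 1.04-fold. Il12rb1, which binds p40, reached the median on 1 array, with 76.2 in WT lipid A against a median of 74.8. By the signals as measured it counted as 1 of 3 detected genes over 2-fold higher in WT and as 1 of 3 over 3-fold lower in KO under lipid A, but its bounds were 1.17-fold and 1.01-fold. Il12rb2, the signaling chain of the interleukin-12 receptor, was below the median on all 4 arrays.

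By the probe set used for each gene, the kinases and STAT proteins that act below these receptors included none past the threshold between genotypes under lipid A. Probe sets of Stat3 did not agree. A further one had lipid A signals of 15.9 in WT, at background, and 188 in KO. Another, above the median on all arrays, had a log2 difference of -0.094. Of 6 listed genes, 5 were measured and 4 were detected in that comparison, with 0 past 3-fold in either direction and a median log2 difference of 0.16. Over all detected genes 6.35% were higher and 5.73% lower. Jak2, which the receptors of interleukin-12 and interleukin-23 use, was 4.29-fold higher after lipid A in WT macrophages and 8.86-fold higher in KO macrophages, the only gene of this list that was over 2-fold higher in either genotype. Jak2 differed 1.32-fold between KO and WT under lipid A. Tyk2, the partner kinase, differed 1.02-fold. Stat4, which carries the interleukin-12 signal in T cells, reached the median in KO vehicle alone, where it gave 142, and was at least 1.88-fold lower with lipid A in KO.

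Among transcriptional activators known to act on genes of this family, 15 of 16 listed genes were measured and all 15 were detected in each comparison. With lipid A, 6 were over 2-fold higher in WT and 7 in KO, and the 6 of WT, Rel, Rela, Nfkb2, Relb, Irf1 and Nfkbiz, were among the 7. Batf was the addition in KO. Jun was over 2-fold lower in both genotypes, and Fos, which also encodes an AP-1 subunit, was lower in KO. Over all detected genes 11.8% were higher and 8.94% lower in WT, and 11.2% and 16.0% in KO. This list, too, was chosen with earlier results of these data known. Rel encodes c-Rel, an NF-κB subunit that in mice is needed for Il12b transcription, and went from 247 to 848 with lipid A in WT and from 254 to 1951 in KO. The WT response of Rel was 3.44-fold, and under lipid A it was 2.30-fold higher in KO than in WT. Irf1, a factor used by Il12a, had lipid A signals of 21439 in WT and 21204 in KO.

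Under lipid A, by the probe set used for each gene, 0 of the 15 activators were over 3-fold higher in KO. Fos alone was over 3-fold lower, at 3.23-fold, and the median was 0.11. Over all 12335 detected genes 6.35% were higher and 5.73% lower by this threshold. Probe sets of Irf3 did not agree. The probe set used had a log2 difference of 0.42, and further ones above the median on all arrays had 2.29 and 0.39. Another had -4.64 as measured, with a background signal in KO lipid A. Nfkb2 was 2.57-fold higher and Batf 2.75-fold higher. Nfkbiz, which encodes the nuclear IκB protein IκBζ, responded to lipid A with an 8.46-fold higher signal in WT and a 71.8-fold higher signal in KO. Its vehicle signal was 4.16-fold lower in KO and its lipid A signal 2.04-fold higher. Probe sets of Nfkbiz did not give the same size, and one of the further ones, above the median on all arrays, had log2 responses of 2.11 in WT and 2.54 in KO and a log2 difference of 0.26 between KO and WT under vehicle. Under vehicle 2 of the 15 were over 3-fold lower in KO by the signals as measured, Nfkbiz and Nfkb2, and 0 were higher, and the bound for Nfkb2 was 2.83-fold. A further probe set of Nfkb2 had vehicle signals of 178 in WT and 190.1 in KO, so that neither gene was lower in KO under vehicle by each of its probe sets. Over all genes detected under vehicle 6.28% were over 3-fold higher and 3.65% lower in KO.

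Repressors and mRNA decay factors of the family's genes were also among the genes that differed. Of 14 listed and detected genes, 3 were past 3-fold upward and 2 downward in KO with lipid A, with a median of 0.72. Over all 12335 detected genes 6.35% were higher and 5.73% lower by this threshold. The list was chosen with earlier results of these data known. Higher were Il10, an anti-inflammatory cytokine that lowers interleukin-12 production, at at least 3.68-fold, Socs3, an inhibitor of cytokine signaling, at 5.79-fold, and Zc3h12a, which encodes the ribonuclease Regnase-1, at 3.40-fold. A further probe set of Zc3h12a had lipid A signals of 134 in WT and 133 in KO. Lower were the repressors Bcl6, at 5.81-fold, and Klf4, at 3.21-fold, for which a further probe set gave a log2 difference of -1.39, short of the threshold. Bcl6 was at 1186 with vehicle and 1185 with lipid A in WT, and at 1493 and 204 in KO. With lipid A, 7 of 13 detected genes of this list were over 2-fold higher and 1 lower in WT, and 8 of 14 were higher and 2 lower in KO. The shares over all detected genes were 11.8% higher and 8.94% lower in WT, and 11.2% and 16.0% in KO. Under vehicle 0 of 12 detected genes were past 3-fold between the genotypes, against 6.28% of all detected genes higher and 3.65% lower in KO.

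**Figure D4:**
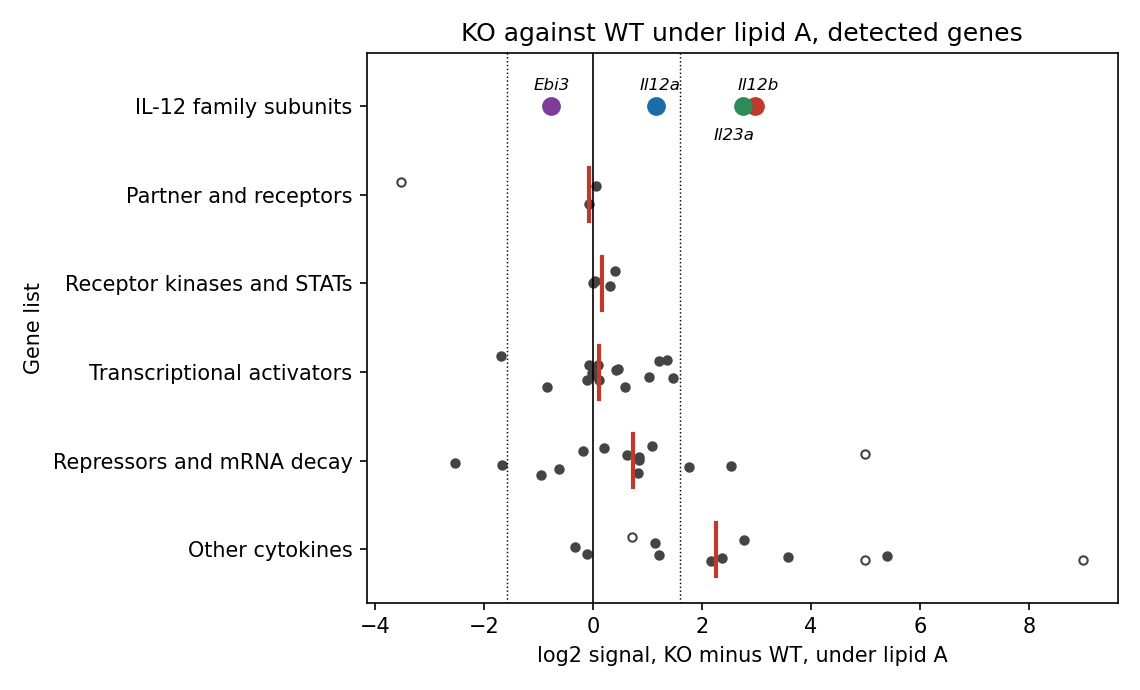
Log2 difference of signal, KO minus WT, under lipid A for the 4 subunit genes and for detected genes of 5 related lists, with filled dark points where both signals reached the median of their array and open points where 1 did, a red line at the median of each related list, and dotted lines at 3-fold in either direction. The medians lie at 0.11 for the activators, 0.72 for the repressors and decay factors and 2.26 for the other cytokines, and Il12b and Il23a lie at 2.96 and 2.75, the latter as measured against a background signal in WT, with a bound of 2.50.

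Other cytokine genes that TLR4 induces, which include Il10 again, were set beside the family. Lipid A gave an over 2-fold higher signal in KO for all 12 listed genes by the signals as measured. By the bounds it did so for 10 of them, which left out Ifnb1 and Csf3. In WT, 7 of 9 detected genes were over 2-fold higher. Over all detected genes the shares were 11.2% in KO and 11.8% in WT. The list was made of genes known to be induced, with earlier results of these data known, so a high count of induction was built in. Under lipid A 7 of 12 were over 3-fold higher in KO and 0 lower, with a median log2 difference of 2.26. Over all 12335 detected genes 6.35% were higher and 5.73% lower by this threshold. As measured, the largest differences were those of Csf2, Il1b, Il10 and Il1a. Csf2 and Il10 were at background in WT lipid A, with bounds of 25.8-fold and 3.68-fold. By the bounds Il6, at 6.78-fold, took the place of Il10 among the 4 largest. Il15, a cytokine that like interleukin-12 acts on NK cells, was not among the 7, and neither were Tnf, Il18, Csf3 and Ifnb1. The lipid A signals of Il15 were 5787 in WT and 5324 in KO.

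Genes with a pattern most like each member were found by the root mean square difference of centred log2 signals over the 4 arrays, background signals being raised to the median, among 3819 other genes that varied by over 1 log2 unit. For Il12b they were Ccl4, Cd40, Slc7a2, Hcar2 and Il1a, with differences of 0.31 to 0.51. Ccl4 encodes a chemokine and Cd40 a costimulatory receptor. For Il12a they were Slfn2, Gm9706, Gpr84, Maff and Pde4b, with 0.24 to 0.37. For Il23a they were Ccl22, Penk, Lif, Cd80 and Hdc, with 0.046 to 0.17, and in 4 of these, all but Cd80, the lipid A signal of KO stood out from signals at or near background. For Ebi3 they were Stard3, Gdpd5, Mier3, Ankrd66 and Serpinb9, with 0.041 to 0.072. With 4 arrays many genes share such a pattern.

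Markers of other cells that make or answer to these cytokines moved with genotype, and in bulk RNA fewer cells of a type and less RNA per cell cannot be told apart. Dendritic cells are a further source of interleukin-12. Of 11 measured dendritic cell markers, 5 were at or above the median on each WT array, 8 on the KO vehicle array and 6 on the KO lipid A array. Their summed signal lay between 4640 and 5740, most of it from Itgax, which macrophages also express. Without Itgax it was 1079 and 1972 in WT and 1584 and 2344 in KO, with vehicle and lipid A in turn, and was thus higher in KO under both treatments. The largest single part of these sums came from Fscn1, with 597 and 1465 in WT and 381 and 1626 in KO. Fscn1 was over 2-fold higher with lipid A in both genotypes. Single markers went in both directions. Under lipid A Cd209a was at least 2.21-fold, Batf3 2.04-fold, Kit at least 1.71-fold and Ccr7 1.28-fold higher in KO, while Zbtb46, a transcription factor of conventional dendritic cells, was at least 2.26-fold lower. Under vehicle Cd209a was at least 3.42-fold and Batf3 2.15-fold higher in KO, and Fscn1 alone of the detected markers was lower, at 1.57-fold. Flt3 and Xcr1 were below the median on every array.

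B cell markers were also higher in KO. The summed signal of 9 markers was 2616 and 2489 in WT and 6993 and 6569 in KO, again with vehicle and lipid A in turn. Most of the WT sum came from Cd22, which was lower in KO, and without it the sums were 667 and 609 in WT and 5376 and 5557 in KO. Ms4a1, the gene of CD20, had a KO signal 16.7-fold that of WT under vehicle and 22.5-fold under lipid A, and Cd79b, part of the B cell receptor, was 10.0-fold and at least 8.75-fold higher in turn. The part of other cells in the results on Il12a, Il12b, Il23a and Ebi3 was not tested. The marker genes named here were named after their values were seen.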

How the data were processed

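Peritoneal macrophages of both genotypes, elicited with thioglycollate and treated with vehicle or lipid A, were measured on 4 Affymetrix mouse genome arrays, 1 for each condition, and samples were grouped by their titles. The authors deposited probe set intensity values on a linear scale, and the sources used here do not give the software behind them. The 2% trimmed mean was 500.004 for each of the arrays, from which a scaling by array was inferred. Detection calls, which the study combined with its fold thresholds, were not used here. Differences of single arrays therefore include any unevenness of labeling or hybridisation, and the number of arrays limits the precision.

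Of 45101 probe sets, 64 controls were left out, and 34945 had 1 symbol in the platform annotation, 932 several and 9160 none. Of those with 1 symbol, 34741 were matched to a RefSeq gene. For each gene the probe set brightest by its mean log2 signal was used. Signals were log2-transformed and subtracted, with thresholds of 2-fold for lipid A and for the difference of responses and 3-fold between genotypes. No p-value was computed. Promoter windows were found for Il12a, Il12b and Ebi3, and not for Il23a.

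The members and the 10 gene lists, 5 of pathways and 5 of cell markers, were chosen with earlier results of these data known. All probe sets of the members were reported, up to 4 genes of a list with the largest difference in a comparison were named, and the 5 genes nearest to each member in pattern. Il15, Tnf, Il18, Csf3, Ifnb1, Il12rb2, Stat4, Klf4, Rela, Relb, Jun, Irf3 and some marker genes were named outside this rule, after their values were seen. The calling step for KO against WT under lipid A was tested on simulated data. The genes raised there were all above the array median in WT vehicle, so calls against a background signal, as for Il23a, were not covered. Alternatives were other scalings, detection filters, treatments of low signals, ways from probe sets to genes, and fold thresholds. Computation used numpy 2.4.6 and pandas 2.3.3 under Python 3.11.15, and figures were drawn by matplotlib 3.10.9.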

Additional observations from a re-analysis of the deposited data

Results flagged for a closer look

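The further probe set of Il12b was the single member probe set that was detected under both treatments and differed between the genotypes in opposite directions. It was lower in KO under vehicle, with 85.7 in WT and 27.2 in KO, and higher in KO under lipid A, with 309 in WT and 3118 in KO. On the log2 scale its response to lipid A was larger by 4.99 in KO than in WT, or by 3.36 once background signals were raised to the array median. With raised signals the vehicle difference was -0.027, so that the lower vehicle level rests on a signal at background. Each of these values comes from 1 array per condition, and the difference was not tested.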

How the results depend on the processing

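With both signals required to reach their median, the count of members past the threshold was 0 for lipid A against vehicle in WT (2 as reported), 0 in KO (3), 0 for the difference of responses (3) and 1 for KO against WT under lipid A (2), since the vehicle signals of Il12a, Il12b and Il23a and the WT lipid A signal of Il23a are below it. Under vehicle the count of 0 became 2 lower with no filter, from Il12a and Il23a, and 1 lower with every probe set counted. Raising low signals to the median left 2 for the difference of responses. The other alternatives kept each count within 1.5 times. The log2 difference between KO and WT under lipid A was followed over the scalings, the treatments of low signals and the median over probe sets. It lay between 2.88 and 3.15 for Il12b, 1.10 and 1.16 for Il12a, 2.06 and 2.78 for Il23a, and -0.80 and -0.73 for Ebi3. The further probe set of Il12b alone gave 3.34. Of the values of single members in the other comparisons, 24 moved by more than the technical SD and 56 did not. Scaling to a common median lowers the WT response by 0.20 and KO against WT under vehicle by 0.37, and raises the KO response by 0.15, on the log2 scale. No paired analysis was possible because each group has 1 array. Folds against background signals are bounds, and Il23a in WT could not be measured above background.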

Other observations

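T cells and NK cells are the main responders to interleukin-12. Of 8 measured T and NK cell markers, 0 were at or above the median with vehicle and 2 with lipid A in WT, and 3 and 6 were so in KO, and the summed signals were 283, 371, 794 and 678 in this order. Cd3d, part of the T cell receptor complex, had signals of 60.9 and 35.4 in WT and of 287 and 151 in KO, with vehicle and lipid A in turn. Of 8 measured neutrophil markers, 3, 2, 4 and 2 were at or above the median on the same arrays, and the summed signal was 1947, 2017, 1039 and 928. S100a8, an abundant neutrophil protein gene, gave 1727 and 1721 in WT and 569 and 676 in KO, under vehicle and lipid A in turn, and without it the sums were 221 and 296 in WT and 469 and 252 in KO, while S100a9, which encodes its partner, lay between 11.8 and 59.0 and below the median of every array. These genes were named after their values were seen.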
